A study of Mus musculus with 16 samples.

Results

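The superoxide dismutases, catalase and peroxidases are the enzymes that remove superoxide and peroxides from cells. Their mRNA was followed through 10 genes of the deposited table of 56941, picked by gene symbol: Sod1, Sod2, Sod3, Cat, Gpx1, Gpx3, Gpx4, Gpx8, Prdx5 and Prdx6. All 10 were found, and all 10 were among the 16306 genes with enough counts to be tested. Superoxide dismutases turn superoxide into hydrogen peroxide, which catalase splits in peroxisomes and which glutathione peroxidases and peroxiredoxins reduce with electrons from glutathione or thioredoxin. In connective tissue cells superoxide leaks mainly from the respiratory chain and from NADPH oxidases, and inflammatory cytokines are known to raise the mitochondrial dismutase.

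The cells were wild-type murine gingival fibroblasts (mGF), grown from explants of gum tissue around an upper molar of C57Bl6 mice aged 3 to 6 months and used at passages 2 to 8. Palmitate, a saturated fatty acid, was given as a complex with albumin at 200 µM, and the cytokine IL-1β at 1 ng/mL, both for 24 h. The 4 conditions were BSA (the albumin vehicle, 200 µM, as control), IL-1β, palmitate, and palmitate + IL-1β, with 4 libraries each. The IL-1β libraries received the same vehicle at 200 µM. No label ties the libraries to separate animals or cultures, so p-values measure the spread between these libraries, which may be technical. In bulk RNA, fewer cells of a type and less RNA per cell cannot be told apart.

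Total gene counts ran from 21234789 to 92752515 per library, the highest in palmitate replicate 10. The 12 fibroblast markers examined were all present and summed to 49300 to 61500 CPM (counts scaled to a common library size). Lum and S100a4 among them were low, with means of 1.12 to 2.67 CPM. Epithelial markers summed to at most 1.35 CPM and endothelial markers to at most 2.75 CPM. Leukocyte and macrophage markers summed to 4.33 to 7.91 CPM, with Adgre1, Cd3e and Ly6g at or under 3 counts in every library, and mural and muscle markers to 2950 to 3820 CPM. Most of the last sum was Acta2, a smooth muscle actin that cultured fibroblasts also express, with means of 3020 to 3490 CPM. Rgs5, Des and Myh11 had means of 1.24 to 24.8 CPM, Cspg4 of 56.1 to 73.7 CPM and Cnn1 of 97.5 to 119 CPM. Levels below are CPM on library sizes scaled by the TMM method, given as mean ± SD of 4 libraries. Differences were tested by edgeR (quasi-likelihood F-test), with p-values adjusted by the method of Benjamini and Hochberg over all 16306 genes. An adjusted p under 0.05 counted as a call, and every adjusted p in the text comes from that fit unless another tool is named.

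The glutathione peroxidases differ at the catalytic residue, and the coding sequences are shown because they sort these genes independently of expression. Gpx1, Gpx3 and Gpx4 read an in-frame TGA as selenocysteine, whereas Gpx8 has a cysteine codon, TGC, at the aligned place. Capitals mark that codon, which is codon 47 of Gpx1, 73 of Gpx3, 73 of Gpx4 and 79 of Gpx8, counted from the start codon in GENCODE vM39 (GRCm39).
Gpx1: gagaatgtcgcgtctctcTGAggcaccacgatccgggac
Gpx3: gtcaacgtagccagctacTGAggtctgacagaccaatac
Gpx4: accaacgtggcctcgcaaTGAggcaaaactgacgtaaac
Gpx8: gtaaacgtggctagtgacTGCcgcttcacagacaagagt

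Sod2 rose most. It encodes the manganese dismutase of the mitochondrial matrix and lies on chromosome 17 from 13224095 to 13259591 (plus strand; GRCm39, as are all positions here). Its level was 30.2, 28.6, 29.7 and 30.9 CPM in the BSA libraries and 120, 117, 113 and 118 CPM in the palmitate libraries. With IL-1β it was 37.3, 35.2, 35.5 and 37.7 CPM, and with palmitate + IL-1β 127, 126, 123 and 120 CPM. Every treated library was above every BSA library (p = 0.0286 by a two-sided exact permutation test, which is the least that 4 libraries against 4 can reach), and the palmitate libraries were far above the IL-1β libraries.

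Palmitate raised Sod2 3.92-fold over BSA, a log2 fold change of 1.97 with a standard error of 0.04 (adjusted p = 2.78e-26). IL-1β alone raised it 1.22-fold, by 0.29 on the log2 scale (SE 0.04, adjusted p = 1.73e-05). With both agents the rise was 4.15-fold, a log2 fold change of 2.05 (SE 0.04, adjusted p = 7.7e-27). Palmitate also raised it on top of IL-1β, by 1.76 (adjusted p = 1.08e-24). Adding IL-1β to palmitate gave a log2 difference of 0.08 (95% interval 0 to 0.16, adjusted p = 0.216) that did not pass the test, although the libraries did not overlap.

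Sod1, the copper-zinc dismutase of the cytosol (chromosome 16, 90017408 to 90027657), was at 64.7 ± 4.81 CPM in BSA and, under IL-1β, palmitate and both agents, at 68.5 ± 7.94, 64.2 ± 6.32 and 72.2 ± 3.97 CPM. Libraries overlapped in every pair of conditions. Sod3, the dismutase secreted into the matrix (chromosome 5, 52521070 to 52528883), was at 157 ± 4.84, 151 ± 10.5, 158 ± 4.68 and 153 ± 6.38 CPM in the same order. Neither passed the test in any comparison. The 95% intervals of their log2 fold changes against BSA lay within -0.18 to 0.33 for Sod1 and within -0.16 to 0.10 for Sod3, and both exclude the 1.97 of Sod2 with palmitate.

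**Figure D1:**
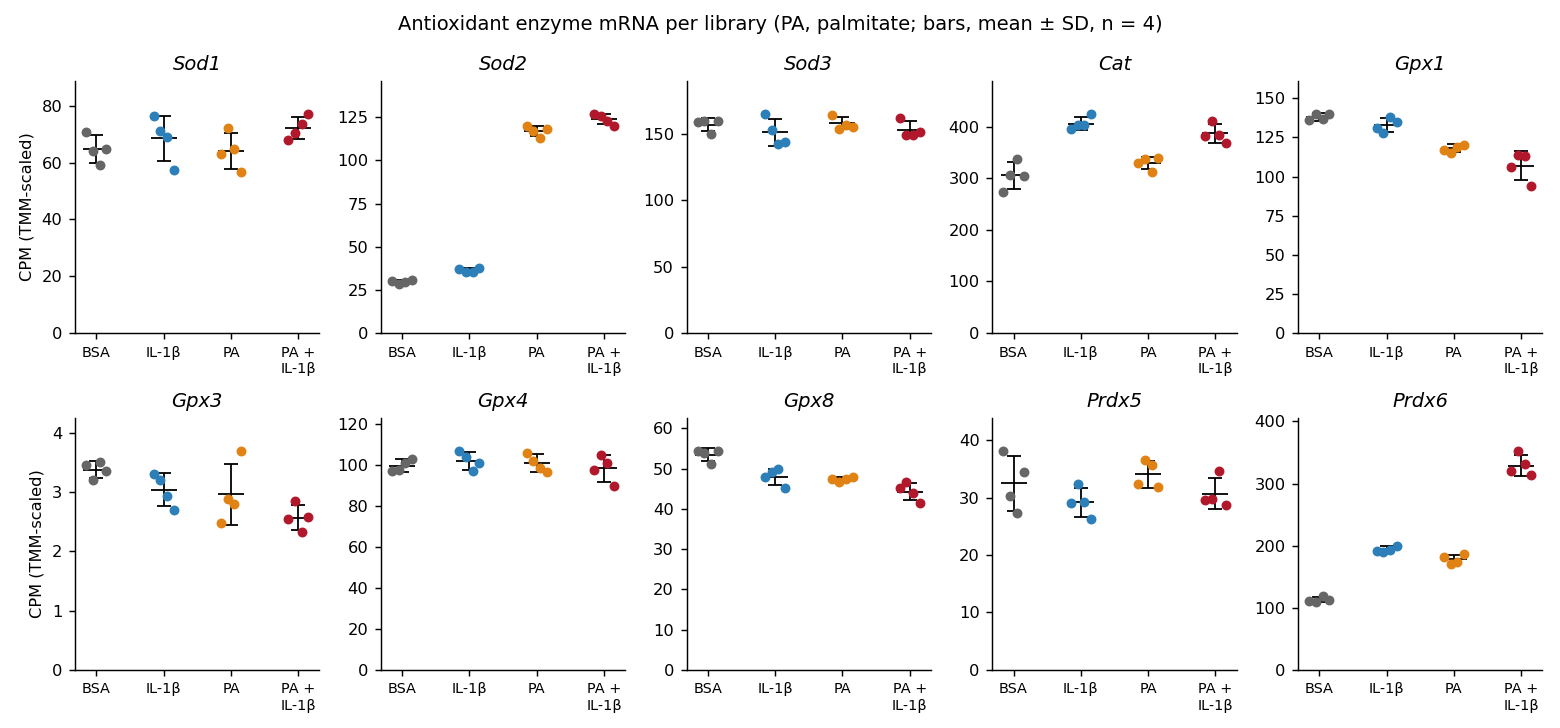
Level of each enzyme gene in every library, in CPM on TMM-scaled library sizes (vertical axes start at 0 and differ between panels), by condition (PA, palmitate); points are libraries and bars the mean ± SD of 4. Sod2 went from 29.8 CPM in BSA to 117 CPM with palmitate, and Prdx6 was highest with both agents at 329 CPM.

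Cat encodes catalase, the peroxisomal enzyme that splits hydrogen peroxide into water and oxygen (chromosome 2, 103284194 to 103316185, minus strand). It rose with IL-1β. Its level was 274, 307, 338 and 305 CPM in BSA and 395, 403, 403 and 425 CPM in the IL-1β libraries. It was 329, 338, 313 and 339 CPM in the palmitate libraries and 383, 411, 384 and 369 CPM in those given both. All libraries with IL-1β were above all libraries without it.

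IL-1β raised Cat 1.33-fold over BSA (log2 0.41, SE 0.05, adjusted p = 2.75e-07), and it raised it 1.17-fold on top of palmitate (log2 0.23, SE 0.05, adjusted p = 0.00199). With both agents Cat was 1.26-fold above BSA (log2 0.34, SE 0.05, adjusted p = 1.14e-06). Palmitate alone gave 1.08-fold (95% interval of the log2 value 0.01 to 0.21, adjusted p = 0.0909), short of the threshold. Without BSA replicate 3, the highest of that group, the palmitate difference was 0.16 and passed (adjusted p = 0.00899).

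Gpx1, the abundant glutathione peroxidase of cytosol and mitochondria (chromosome 9, 108216102 to 108217546), fell with palmitate. It was at 136, 140, 137 and 140 CPM in BSA and at 117, 115, 119 and 120 CPM with palmitate. With IL-1β it was at 131, 128, 138 and 135 CPM, and with both agents at 106, 114, 113 and 94 CPM. Libraries with palmitate lay below all libraries without it, and those with both agents lay below those with palmitate alone.

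The fall of Gpx1 with palmitate was 15.0% (log2 fold change -0.23, SE 0.05, adjusted p = 0.000152), and with both agents 22.9% (-0.38, SE 0.05, adjusted p = 6.51e-08). IL-1β alone gave -0.05 (95% interval -0.15 to 0.04, adjusted p = 0.496). On top of IL-1β, palmitate lowered it by a log2 fold change of -0.32 (adjusted p = 2.09e-06). Adding IL-1β to palmitate gave -0.14 (adjusted p = 0.0562), just short of the threshold, and it passed in 7 of 16 alternatives. These were DESeq2 (adjusted p = 0.0361), upper-quartile scaling (0.0341), no expression filter (0.0272), a stricter filter of 10 counts per library (0.0375), no mitochondrially encoded genes (0.0483), and leaving out palmitate + IL-1β replicate 14 (0.0271) or 15 (0.0313).

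Gpx8, a membrane peroxidase of the endoplasmic reticulum with cysteine in place of selenocysteine (chromosome 13, 113178829 to 113183292, minus strand), was below BSA in all 3 treated conditions. It was at 54.3, 53.8, 51.2 and 54.5 CPM in BSA and 47.9, 49.1, 49.9 and 45.3 CPM in the IL-1β libraries. It was 47.5, 46.8, 47.5 and 47.9 CPM in the palmitate libraries and 45.3, 46.6, 43.9 and 41.4 CPM in those given both. No treated library reached the lowest BSA library. The log2 fold changes against BSA were -0.18 with palmitate (adjusted p = 0.0026), -0.15 with IL-1β (adjusted p = 0.0195) and -0.27 with both (adjusted p = 9.36e-06), each with SE 0.05. With IL-1β the call was lost without BSA replicate 4 (log2 -0.15, adjusted p = 0.0545) or IL-1β replicate 8 (-0.13, adjusted p = 0.0846), at about the same fold change. With both agents it was 0.12 lower than with IL-1β on the log2 scale (adjusted p = 0.0476), a call lost in 8 of 16 alternatives. These were leaving out replicate 5, 6, 7, 15 or 16 (adjusted p from 0.0707 to 0.169), no expression filter (0.0712), the fit of those 2 conditions alone (0.0585) and the fold threshold of 0.5.

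Gpx3, the glutathione peroxidase secreted into plasma (chromosome 11, 54793279 to 54802424), was the least expressed at 3.38 ± 0.138 CPM in BSA and was counted as few as 51 times in a library. Under IL-1β, palmitate and both agents it was at 3.04 ± 0.278, 2.96 ± 0.520 and 2.57 ± 0.217 CPM. It fell with both agents (log2 -0.39, SE 0.13, adjusted p = 0.0151), a call lost without palmitate + IL-1β replicate 15 (adjusted p = 0.0504). Antisense transcripts of Tnip1 cover 88.3% of its transcript, with 2906 to 18530 counts on Tnip1, so the Gpx3 value depends on counting by strand. The same holds for Sod1, where antisense Scaf4 covers 79.3% of the transcript searched, for Gpx1 (Gm57050, 80.5%) and for Prdx5 (Trmt112, 46.3% of 1580 bases).

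Gpx4, which reduces lipid peroxides in membranes (chromosome 10, 79883000 to 79892273), was at 99.7 ± 2.97 CPM in BSA and, under IL-1β, palmitate and both agents, at 102 ± 4.37, 101 ± 4.25 and 98.3 ± 6.44 CPM. It passed the test in no comparison, and its log2 intervals against BSA lay within -0.12 to 0.13. Of its transcript, 57.9% is shared at 95% identity or more with the pseudogene Gpx4-ps2, which had 52 to 245 counts, and a larger part with Gm63662, so its level is uncertain. Of the selenocysteine genes, Gpx1 and Gpx3 were called against BSA and Gpx4 was not, and the cysteine enzyme Gpx8 was called as well. Whether the selenocysteine codon bears on the levels was not tested.

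Prdx6 is a peroxiredoxin with a single catalytic cysteine that uses glutathione and acts on phospholipid peroxides. It lies on chromosome 1 from 161051417 to 161079098 on the minus strand. The 250 bases before its start, chr1:161079099-161079348 on the minus strand of GRCm39, are shown because Prdx6 was raised by each agent. Capitals mark a match to the antioxidant response element, the site known to be bound by Nrf2, searched as TGACNNNGC on both strands.
Prdx6 promoter: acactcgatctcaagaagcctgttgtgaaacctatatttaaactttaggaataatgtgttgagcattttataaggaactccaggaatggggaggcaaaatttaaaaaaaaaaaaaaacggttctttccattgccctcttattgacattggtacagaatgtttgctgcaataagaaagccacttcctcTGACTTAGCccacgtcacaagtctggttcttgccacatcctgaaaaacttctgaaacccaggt
The match, TGACTTAGC, lies 63 to 55 bases before the start. That motif was found in 9.69% of 21770 promoters of the same length, and in Sod1 too (letters GCAAAGTCA, 95 to 87 bases before the start), whose level passed no test. The motif of NF-kB was found in 7.62% of promoters, among them those of Cat and Gpx1, and the Sod2 window held neither motif. Each window precedes the start of 1 reference transcript of its gene, and other starts were not searched. In the windows of Gpx1, Sod2 and Cat, 151, 91 and 59 of the 250 bases lie in annotated exons of the same gene. A match is a description of these letters only.

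Prdx6 was at 111, 109, 119 and 113 CPM in BSA and 191, 190, 193 and 200 CPM in the IL-1β libraries. It was 181, 170, 174 and 186 CPM in the palmitate libraries and 320, 353, 331 and 313 CPM in those given both. The 4 conditions did not overlap in any pair. Against BSA it rose 1.57-fold with palmitate (log2 0.65, SE 0.04, adjusted p = 1.42e-13), 1.71-fold with IL-1β (log2 0.78, SE 0.04, adjusted p = 1.18e-14) and 2.91-fold with both (log2 1.54, SE 0.04, adjusted p = 3.35e-23).

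Each agent also raised Prdx6 on top of the other. Palmitate added 0.76 on the log2 scale to IL-1β (adjusted p = 3.15e-15), and IL-1β added 0.89 to palmitate (adjusted p = 7.44e-16), where Prdx6 ranked 9 by p-value among the 16306 genes. The interaction was 0.12 (SE 0.06, 95% interval -0.01 to 0.24, adjusted p = 0.561), so on the log2 scale no departure from a sum of the separate effects passed the test.

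Prdx5, a peroxiredoxin found in mitochondria, peroxisomes and cytosol (chromosome 19, 6884065 to 6887792, minus strand), was at 32.5 ± 4.77 CPM in BSA and, under IL-1β, palmitate and both agents, at 29.2 ± 2.50, 34.1 ± 2.37 and 30.7 ± 2.70 CPM. Libraries overlapped in every pair of conditions and no comparison passed. Its log2 intervals against BSA were wide, within -0.35 to 0.26. Its closest approach was palmitate above IL-1β by 0.23 (adjusted p = 0.0625), which passed when only those 8 libraries were fitted (adjusted p = 0.00775), without the expression filter (0.00152) or without IL-1β replicate 6 (0.0318).

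**Figure D2:**
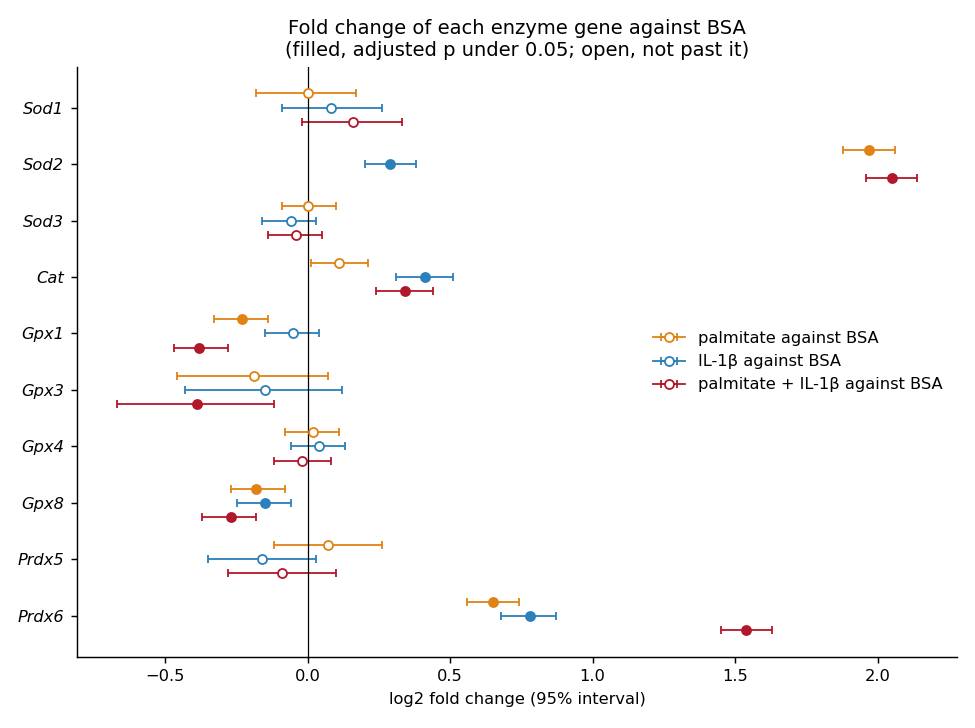
Log2 fold change of each enzyme gene against BSA with its 95% interval, by comparison; filled points passed the adjusted p threshold and open points did not. Sod2 with palmitate (1.97) and with both agents (2.05) and Prdx6 with both (1.54) stood farthest from 0, and Gpx1 and Gpx8 lay below 0.

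Read as a set, 6 of the 10 genes were called in at least 1 of the 3 comparisons with BSA, where 53.4% of all tested genes were. The other 4 (Sod1, Sod3, Gpx4 and Prdx5) were called in none of the 7 contrasts, as were 40.1% of all genes, so both counts were near the share of the whole table. With palmitate, 2 rose and 2 fell, where 19.8% of all tested genes rose and 17.5% fell. With IL-1β, 3 rose and 1 fell, against 10.1% and 4.97% of all genes, and with both agents 3 rose and 3 fell, against 24.8% and 22.5%. The median log2 fold change of the 10 was 0.01, -0.01 and -0.03 in these comparisons, beside a median of 0 over all genes. Libraries did not overlap in 4, 4 and 6 of the 10 in the same order, against 36%, 17.6% and 41.5% of all genes. These 3 comparisons share the BSA libraries.

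On top of IL-1β, palmitate raised 2 members (Sod2 and Prdx6) and lowered 2 (Gpx1 and Gpx8), where 18.9% of genes rose and 16.1% fell. On top of palmitate, IL-1β raised 2 (Cat and Prdx6) and lowered 0, where 5.71% rose and 4.1% fell. Libraries did not overlap in 5 members there, against 16.7% of all genes, and Sod2, Gpx1 and Gpx8 of these did not pass the test. For both agents against IL-1β they did not overlap in 3 members, against 31.3% of all genes. For palmitate against IL-1β they did not in 4, against 31.1%. Set directly against IL-1β, palmitate gave 1 higher member, Sod2 (log2 1.68, adjusted p = 4.0e-24), against 16.5% of genes, and 3 lower, against 15.2%. The lower ones were Cat (-0.30, adjusted p = 1.49e-05), Gpx1 (-0.18, adjusted p = 0.00363) and Prdx6 (-0.13, adjusted p = 0.0275), and the call of Prdx6 was lost without replicate 8, 10 or 11, at log2 differences of -0.11, -0.10 and -0.12 (adjusted p = 0.0797, 0.121 and 0.0783).

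The interaction contrast asked whether palmitate acted differently in the presence of IL-1β. By edgeR 0 of the 10 were called, where 0.159% of all genes had a positive and 1.83% a negative interaction. At an unadjusted p under 0.05 there were 2, Sod2 (log2 -0.21, 95% interval -0.33 to -0.08, adjusted p = 0.0775) and Cat (-0.18, interval -0.32 to -0.04, adjusted p = 0.295). DESeq2 called 1, Sod2 (-0.21, adjusted p = 0.026).

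**Figure D3:**
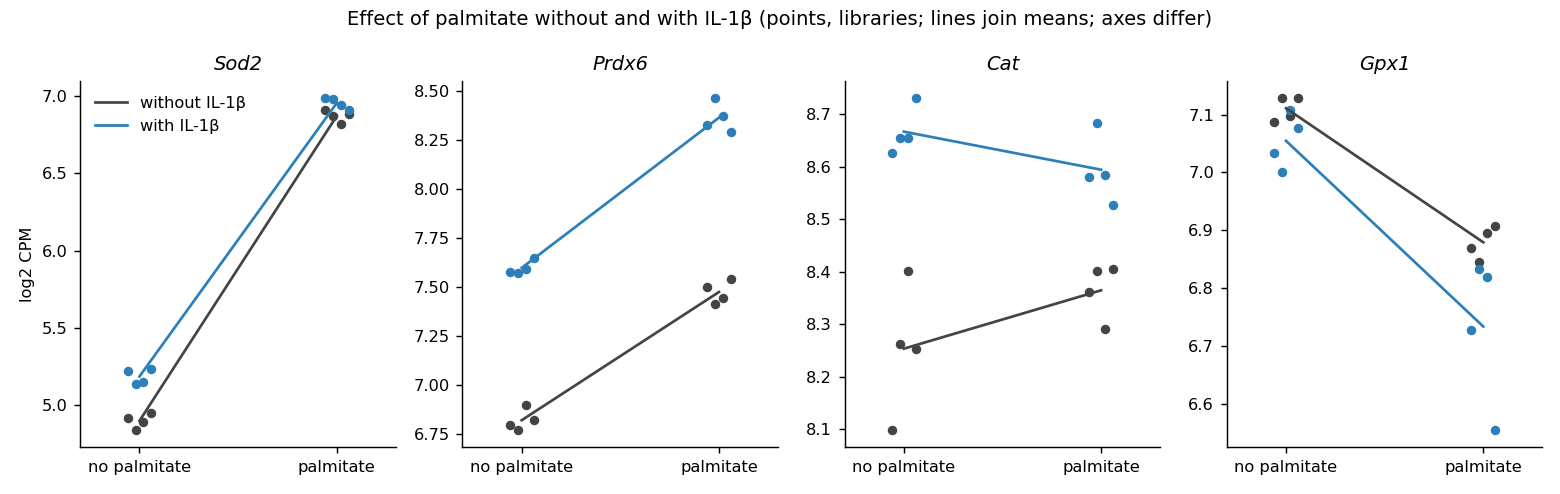
Log2 CPM of 4 enzyme genes without and with palmitate, in grey without IL-1β and in blue with it; points are libraries, lines join condition means, and the vertical axes differ. The lines of Prdx6 run nearly parallel (interaction 0.12), those of Sod2 close up with palmitate (-0.21), and those of Cat approach each other (-0.18); none of these passed the adjusted test by edgeR.

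Levels can be compared between genes only per length. Per kb of all annotated exon bases, Gpx1 was highest in BSA at 95.7 ± 1.43 CPM per kb, followed by Cat at 83.4 ± 7.12 and Gpx4 at 57.8 ± 1.65. Sod2 stood at 2.29 ± 0.0742 CPM per kb and Gpx3 at 1.10 ± 0.0446, the lowest. By this length Prdx5 (13.0 ± 1.90) and Prdx6 (12.1 ± 0.464) were within their spread of each other. Annotated exons can be far longer than the coding sequence (9304 and 672 bases for Prdx6), and per kb of coding sequence the order changed. In BSA by coding length, Prdx6 was at 168 ± 6.43 CPM per kb, well above Prdx5 at 51.6 ± 7.58. Sod3 (209 ± 6.45) and Cat (194 ± 16.5) were then within their spread of each other. In palmitate + IL-1β, Prdx6 was first at 490 CPM per kb by coding length, ahead of Cat at 245, but in place 5 by exon length. Gpx1 in first place in BSA and Gpx3 in last place in every condition held for both of these lengths and for the longest transcript.

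The genes whose log2 CPM tracked a member most closely over the 16 libraries were looked up among 11817 genes, as a description. For Sod2 they were Jak2 (Pearson r = 0.9966), a cytokine receptor kinase, Lbp (0.9963), which binds bacterial lipopolysaccharide, and Mmp3 (0.995), a matrix protease. For Prdx6 they were Dusp18 (0.9899), D16Ertd472e (0.9881) and Hmox1 (0.9876), the heme oxygenase. For Cat they were Klf10 (0.9643), Gas2l3 (0.9511) and Rab39b (0.947). Each point is 1 library, in which both genes share the treatment and the depth, and the 16 points form 4 conditions, so these values describe levels that followed the conditions alike.

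Around these enzymes, 17 genes that supply glutathione and thioredoxin were tested. With palmitate 10 rose and 1 fell (19.8% and 17.5% of all genes), with IL-1β 8 rose and 0 fell (10.1% and 4.97%), and with both 10 rose and 1 fell (24.8% and 22.5%). Their median log2 fold changes were 0.39, 0.14 and 0.45, beside 0 over all genes. Slc7a11, the cystine importer, went from 49.0 ± 4.36 CPM in BSA to 258 ± 22.4, 382 ± 17.8 and 762 ± 89.1 CPM under IL-1β, palmitate and both agents. Srxn1, which repairs overoxidised peroxiredoxins, went from 156 ± 7.56 to 394 ± 19.5, 449 ± 21.2 and 877 ± 38.4 CPM in the same order. The gene that fell was Txnip, the thioredoxin inhibitor (log2 -0.48 with palmitate, adjusted p = 1.24e-08, and -0.45 with both, adjusted p = 2.82e-08).

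Among 6 tested relatives of the 10 enzymes, Prdx1, the cytosolic peroxiredoxin, rose in all 3 comparisons, by 0.55, 0.17 and 0.83 on the log2 scale with palmitate, IL-1β and both (adjusted p = 1.33e-10, 0.0161 and 4.98e-15). Prdx2 fell with both agents (-0.22, adjusted p = 0.000171). The medians of the 6 were -0.06, -0.09 and -0.12. Of 9 genes for selenoprotein synthesis and selenium supply, 3 rose and 2 fell with palmitate, 1 rose with IL-1β, and 3 rose and 1 fell with both. The medians were -0.05, -0.05 and -0.06. Over all genes 19.8% rose and 17.5% fell with palmitate, 10.1% and 4.97% with IL-1β, and 24.8% and 22.5% with both. Lrp8, a receptor for selenoprotein P, was higher with palmitate (0.80, adjusted p = 3.39e-13) and was the rise with IL-1β (0.53, adjusted p = 3.28e-08). Selenop, its ligand, was lower with palmitate (-0.57, adjusted p = 9.55e-09) and was the fall with both (-0.73, adjusted p = 4.74e-11).

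Of 6 NADPH-supplying enzymes, 2 rose and 2 fell with palmitate, 2 rose and 1 fell with IL-1β, and 3 rose and 2 fell with both (medians 0, 0.08 and 0.12), beside those same shares of all genes. The pentose phosphate enzyme Pgd rose (0.81 with palmitate, adjusted p = 4.79e-17) and the mitochondrial Idh2 fell (-0.75, adjusted p = 1.28e-14). Among 10 tested sources of superoxide and peroxide, 3 rose and 3 fell with palmitate, 2 rose and 1 fell with IL-1β, and 3 rose and 2 fell with both (medians -0.09, 0.03 and -0.07), beside the same shares of all genes. Ero1a, which makes peroxide while forming disulfides in the endoplasmic reticulum, rose with palmitate (0.62, adjusted p = 5.77e-12), and the NADPH oxidase Nox4 fell (-0.65, adjusted p = 5.28e-11).

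Catalase works in peroxisomes, and of 16 peroxisome import and biogenesis genes 2 rose and 2 fell with palmitate, 2 rose and 0 fell with IL-1β, and 3 rose and 3 fell with both (medians -0.11, 0.02 and -0.01), again beside 19.8% and 17.5%, 10.1% and 4.97%, and 24.8% and 22.5% of all genes. The import receptor Pex5 (0.15, adjusted p = 0.0256) and the fatty acid transporter Abcd3 (0.17, adjusted p = 0.0027) were the rises with IL-1β. All 9 tested genes of the NF-kB feedback list, which also holds genes of NF-kB subunits, rose in each comparison with BSA. Nfkbia and Tnfaip3 were among them, and the medians of the list were 1.17 with palmitate, 0.9 with IL-1β and 1.3 with both. Of the 11 leukocyte and macrophage markers 4 could be tested, and with palmitate 1 rose and 1 fell. Cd14 went from 1.54 ± 0.256 CPM in BSA to 3.62 ± 0.584 CPM and Lyz2 from 0.923 ± 0.290 to 0.547 ± 0.108 CPM, while Csf1r (1.45 ± 0.249 and 1.25 ± 0.141 CPM) and Cd68 (1.14 ± 0.428 and 1.08 ± 0.209 CPM) did not pass. The part of these markers in the results was not tested.

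**Figure D4:**
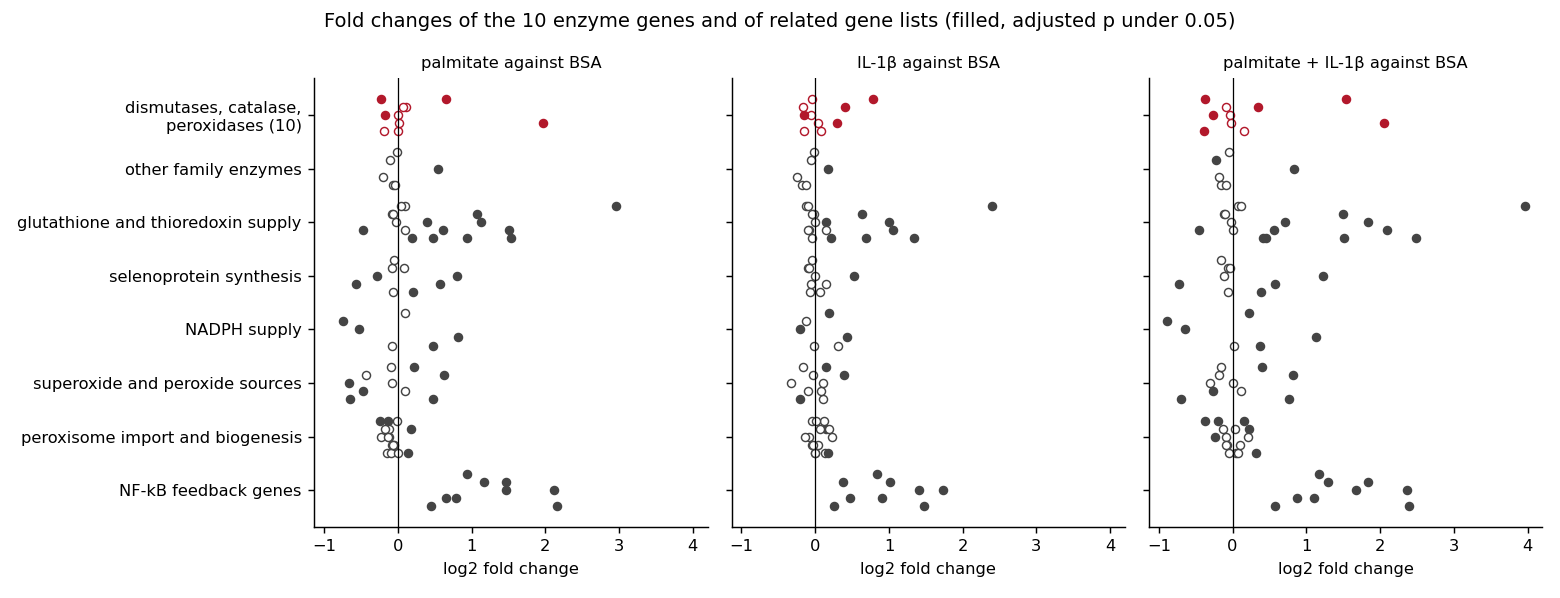
Log2 fold change against BSA of the 10 enzyme genes (red) and of the tested genes of related lists (grey), 1 point per gene, filled where the adjusted p threshold was passed; panels are the 3 comparisons. The 10 enzymes lie on both sides of 0, while Slc7a11 reaches 3.96 with both agents and the 9 genes of the NF-kB feedback list all lie above 0.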

How the data were processed

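Bulk RNA of 16 mGF libraries was analysed. Per the submitters' processing notes and the paper's methods, the authors trimmed reads with Trimmomatic 0.39, aligned them with STAR 2.7.10a to GRCm39 and used HTSeq 2.0.9 for counts on the GENCODE vM33 genes. The values deposited by the authors are raw counts, unfiltered and not normalized, by strand as the table is named. A stranded kit for total RNA is named in the labels, whereas the methods describe oligo(dT)-primed cDNA. Which RNAs were captured is therefore uncertain, and so is the strand counting on which the values of Gpx3, Sod1, Gpx1 and Prdx5 depend. Reads assigned to no gene, several genes or several places (18.3% to 21.4%) were left out, which lowers the counts of genes that have close copies. The authors tested with DESeq2.

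From the counts, filterByExpr (minimum count 10, minimum total 15), TMM scaling and edgeR 4.0.16 (R 4.3.3) glmQLFit (robust) and glmQLFTest were run in a single fit of 16 libraries with 1 mean for each condition and without covariates. TMM factors were 0.970 to 1.04 and the common biological coefficient of variation 6.08%. No replicate pair agreed within sampling noise (chi-square per degree of freedom 2.53 to 17.6). Exact permutation tests compared 4 with 4 libraries. Alternatives were DESeq2 1.42.0, other scalings and filters, fits of the conditions compared, a fold threshold and leaving out each library. The fit was also run on simulated counts, drawn with the common coefficient of variation for every gene and changed only in palmitate. Only palmitate against BSA was checked there, so the other contrasts were not covered. Positions, lengths and sequences came from GENCODE vM39 on GRCm39, so levels per kb divide vM33 counts by vM39 lengths, and shared sequence was searched with BLAST 2.17.0. Protein sequences were not analysed here, and 1 gene of the related lists is not reported here.

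All 10 members are named. From the other lists, at most 2 rises and 2 falls per comparison with BSA were eligible, those with the largest change among called genes of average log2 CPM 1 or more, and the cell type markers were named after their values were seen. For the 3 members with the widest range of condition means, the 3 genes most like each are given. The members and lists were chosen with earlier results of these data known. The palmitate against IL-1β contrast and coding length were added after seeing the data.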

Additional observations from a re-analysis of the deposited data

Results flagged for a closer look

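In groups of 4 libraries, 1 library stood apart from the other 3 in 9 of 144 groups examined (36 genes in 4 conditions), where chance flags about 1 in 20 groups. Among the antioxidant enzymes, Sod3 was at 150 CPM in BSA replicate 3, against 159 to 160 CPM in the others, and at 162 CPM in palmitate + IL-1β replicate 13, against 149 to 151 CPM. Prdx5 was at 34.7 CPM in palmitate + IL-1β replicate 15, against 28.7 to 29.7 CPM. These 2 genes were called in no contrast, though some alternative settings called them (Sod3 in 1 comparison, Prdx5 in 1).

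Of the related genes, Prdx1 was at 514 CPM in BSA replicate 3 (others 439 to 445) and Prdx2 at 99.3 CPM in IL-1β replicate 8 (others 110). Srxn1 was at 418 CPM in palmitate replicate 12 (others 457 to 463), and Selenop at 23.3 CPM in IL-1β replicate 8 (others 28.0 to 28.5). Pex5 was at 32.6 CPM in IL-1β replicate 7 (others 33.5 to 33.6). In palmitate + IL-1β replicate 16, Me1 was at 188 CPM (others 201 to 203).

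In 4 of the named related genes palmitate acted differently when IL-1β was present, by the interaction term of the edgeR fit (Benjamini-Hochberg adjusted p). Over all genes, 0.159% had a positive and 1.83% a negative interaction. In the whole lists, 4 of 17 glutathione and thioredoxin supply genes and 7 of 9 genes of the NF-kB feedback list had a negative interaction. The other related lists had 0. The interaction was -1.40 for Slc7a11 (adjusted p = 4.15e-07) and -0.38 for Srxn1 (adjusted p = 0.000458). It was -1.26 for Nfkbia (adjusted p = 1.85e-14) and -1.48 for Tnfaip3 (adjusted p = 1.04e-13). In each, palmitate raised the gene by a smaller factor when IL-1β was present, though the level was highest with both agents.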

How the results depend on the processing

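Over 70 member contrasts, 1190 recomputations left 1148 calls as they were, and 0 reversed a called direction. Differences that were not called could change sign, as for Gpx4 with palmitate against BSA (log2 -0.05 to 0.04). Of the 28 that lost a call, 15 did so only because a log2 fold change above 0.5 was required. Under that threshold the called members were 2 with palmitate, 1 with IL-1β and 2 with both against BSA (13.6%, 3.07% and 19.5% of all genes). They were 2 with both against IL-1β (12.4%), 1 with both against palmitate (1.6%) and 1 with palmitate against IL-1β (10.4%), and those left were Sod2 or Prdx6. DESeq2 called 1 member in the interaction, Sod2, and the cause was not tested. The fit of only the conditions compared gives no interaction value. Upper-quartile scaling moved the share of called genes that were higher from 53.1% to 37.1% with palmitate, from 67.1% to 43.5% with IL-1β and from 52.4% to 38.7% with both. With both agents it moved the median log2 fold change of all genes to -0.08. It reversed no called member and put Sod3 with both agents past the threshold (-0.12, adjusted p = 0.0286). The fit of 2 conditions did so for Sod1 with both agents (0.15, adjusted p = 0.0359). No paired analysis was possible because no replicate number is shared between conditions. At 51 counts in a library, Gpx3 had the widest intervals.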
